A study of Mus musculus with 8 samples.

Results

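The 38 genes described here are imprinted genes, chosen by name from a list. The count tables held 24921 gene symbols in all, and every 1 of the 38 was among them. By textbook assignment, 24 are expressed mainly from the paternal allele and 13 from the maternal allele. For Gnas, a gene that encodes the stimulatory G protein alpha subunit, the active allele depends on the isoform. Of the 38, 26 fall into 7 known clusters and 12 stand singly. The 26 genes with enough reads were tested, and the other 12 were not.

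Imprinted genes are transcribed mainly from 1 parental copy. The copies are told apart by marks set in egg or sperm, at most of these genes DNA methylation of a control region on one of them and at some, such as Sfmbt2, a histone mark. Many sit in clusters in which a control region governs protein-coding genes and long noncoding RNAs together, and many act on growth of the fetus and placenta. In ES cells the marks are kept by the zinc finger protein ZFP57 with TRIM28 and DNMT1, and prolonged culture can erase them. The reads were not assigned to alleles, so a change in level below may come from either copy.

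RNA carrying poly(A) was sequenced from V6.5 mouse ES cells, a C57BL/6-129 hybrid line kept in 2i medium on gelatin. The OCT4-FKBP groups came from a line whose transcription factor OCT4 is fused to an FKBP degradation tag. They received DMSO or dTag9 for 24 h, and are called DMSO and dTAG here. The WT groups carried no tag, and had normal LIF, a cytokine that maintains ES cells, or had been without LIF for 5 days. Each of the 4 groups had 2 libraries, and the labels do not say whether these came from separate cultures, so the tests rest on the variation among these libraries and that may be technical. No untagged cells received the dTAG compound, and the labels do not say whether the tagged line is 1 clone.

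Counted reads ranged from 7221451 to 11447468 per library. Levels are given as CPM, the reads of a gene scaled by edgeR to a common library size, and are compared between libraries and not between genes. Of 12 ES cell markers, 10 had enough reads to test. The summed level of all 12 was 7118 to 7297 CPM in the DMSO and LIF libraries, 2314 and 2338 CPM with dTAG, and 1916 and 1942 CPM without LIF. Of the 10, 9 were called lower with dTAG and 9 without LIF (edgeR, adjusted p under 0.05). Over all tested genes these shares were 20.3% and 34.4%. Tdgf1 rose without LIF, from 664 and 761 CPM to 1143 and 1136 CPM, and made up most of that sum. Tfcp2l1 was at 3152 to 3599 CPM in the DMSO and LIF libraries and at 91.4 and 100.5 CPM without LIF. The ES cell markers Nanog and Esrrb had 0 and 1 reads in all, and have 4 and 2 listed transcripts.

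The read totals of the members went with the number of RefSeq transcripts that the tables list for the gene. Reads in sequence shared by several listed transcripts are assigned to none of them in this kind of counting, and 42.5% of the reads on listed features were set aside as ambiguous. Of 17 members with 1 listed transcript, 16 could be tested. Of 21 members with several, 10 could be tested. The exception among the former was Rtl1, a retrotransposon-derived gene of placental vessels, which had 2 reads in all and overlaps Meg3 and Rian in the RefSeq annotation.

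**Figure D1:**
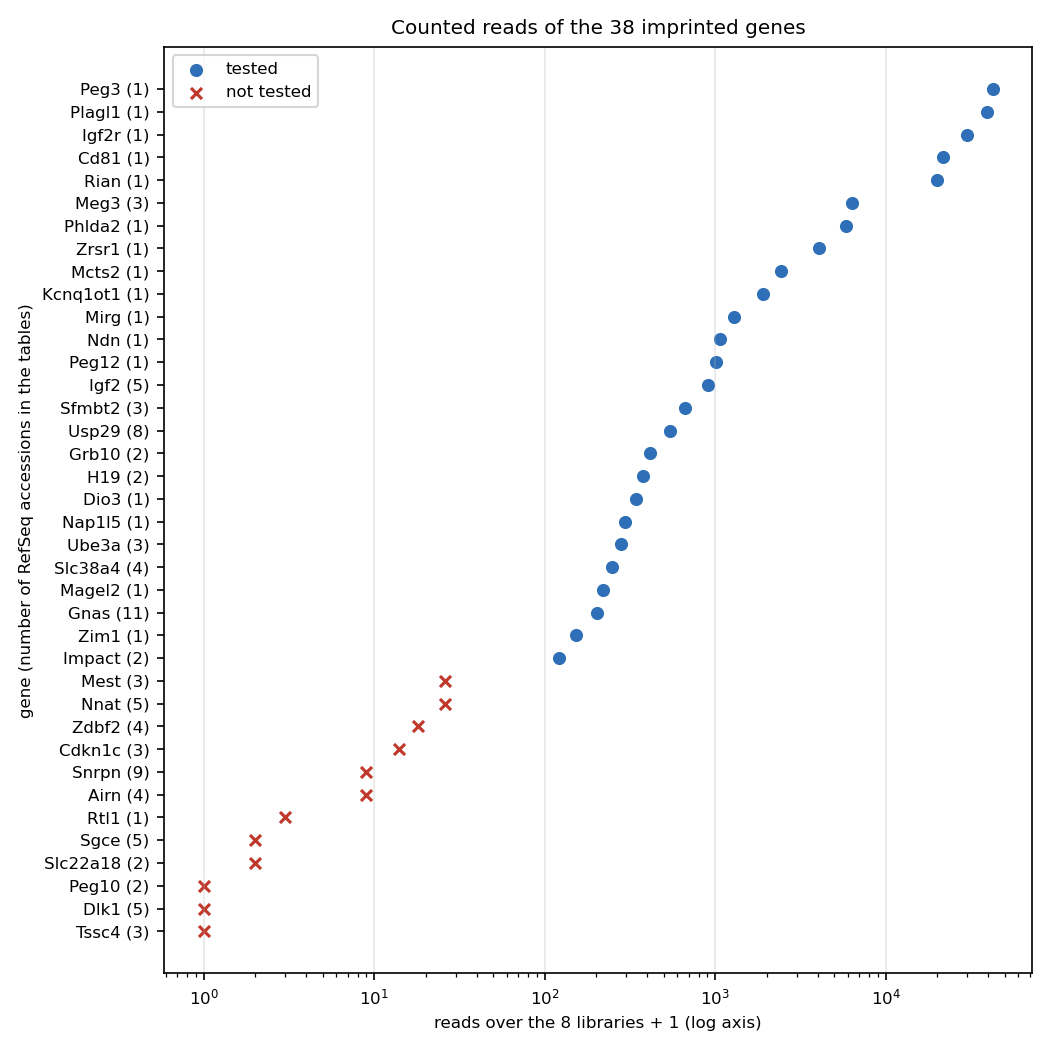
Counted reads over all 8 libraries, plus 1, on a log axis for each of the 38 imprinted genes, with the number of listed RefSeq transcripts in brackets. Blue points are the 26 tested genes, which had between 120 and 42273 reads, and red crosses are the 12 genes that were not tested, which had at most 25.

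Members with too few reads to test were Cdkn1c (13 reads over the 8 libraries), Slc22a18 (1), Tssc4 (0), Dlk1 (0), Rtl1 (2), Snrpn (8), Peg10 (0), Sgce (1), Airn (8), Mest (25), Nnat (25) and Zdbf2 (17). A low count of such a gene says nothing about its expression, since its reads may have been set aside as ambiguous. Nnat, which encodes a small membrane protein of developing brain, had 24 reads without LIF against 0 with LIF, at least 8.33-fold higher against a floor of 3 reads over the group. Mest, a paternally expressed hydrolase-like gene of mesoderm, had 17 reads without LIF against 2 with LIF, a ratio of 8.85 (exact 95% interval 2.10 to 79.0). Cdkn1c, a maternally expressed inhibitor of the cell cycle, had 11 against 0, at least 3.82-fold higher. The noncoding RNA Airn had 7 against 1, a ratio of 7.29 whose interval of 0.936 to 328 includes no difference. Zdbf2 had 8 against 3, also with an interval, 0.666 to 16.3, that includes none. With dTAG, Snrpn had 6 reads against 0 and Zdbf2 had 1 against 5. The intervals cover counting error only. The bounds, here and below, take 3 reads for the group with 0 reads and the other group's count as it stands. They leave out the counting error of that count.

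The start sites of 4 members on which the results turn are shown next. Phlda2 had the largest called rise with dTAG, Peg3 rose in both experiments, and Plagl1 and Nap1l5 rose in one and fell in the other. Each window runs from 250 bases before to 50 bases after the annotated start in RefSeq on GRCm38.p6, 5′ to 3′ on the gene's strand, with CG dinucleotides, where DNA methylation is placed, in capitals. The Phlda2 window is chr7:143502475-143502774 on the minus strand, that of Peg3 is chr7:6730370-6730669 on the minus strand, that of Plagl1 is chr10:13090582-13090881 on the plus strand, and that of Nap1l5 is chr6:58907077-58907376 on the minus strand.
Phlda2: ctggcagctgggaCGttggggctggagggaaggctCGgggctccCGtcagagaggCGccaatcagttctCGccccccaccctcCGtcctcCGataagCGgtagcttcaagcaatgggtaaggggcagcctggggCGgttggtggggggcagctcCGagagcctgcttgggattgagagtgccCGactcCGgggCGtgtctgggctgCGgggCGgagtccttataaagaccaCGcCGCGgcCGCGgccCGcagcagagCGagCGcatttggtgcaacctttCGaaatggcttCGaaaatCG
Peg3: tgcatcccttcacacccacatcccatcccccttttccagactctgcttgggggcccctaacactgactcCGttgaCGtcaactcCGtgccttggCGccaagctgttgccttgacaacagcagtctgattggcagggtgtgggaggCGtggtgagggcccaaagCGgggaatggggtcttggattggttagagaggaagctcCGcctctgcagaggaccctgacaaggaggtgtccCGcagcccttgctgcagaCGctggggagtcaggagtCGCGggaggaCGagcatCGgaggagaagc
Plagl1: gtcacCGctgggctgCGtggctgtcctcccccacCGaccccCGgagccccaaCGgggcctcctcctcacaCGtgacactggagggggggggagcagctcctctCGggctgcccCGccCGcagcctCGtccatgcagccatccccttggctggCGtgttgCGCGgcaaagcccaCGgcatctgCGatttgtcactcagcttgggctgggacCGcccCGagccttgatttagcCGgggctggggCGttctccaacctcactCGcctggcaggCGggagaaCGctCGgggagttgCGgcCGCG
Nap1l5: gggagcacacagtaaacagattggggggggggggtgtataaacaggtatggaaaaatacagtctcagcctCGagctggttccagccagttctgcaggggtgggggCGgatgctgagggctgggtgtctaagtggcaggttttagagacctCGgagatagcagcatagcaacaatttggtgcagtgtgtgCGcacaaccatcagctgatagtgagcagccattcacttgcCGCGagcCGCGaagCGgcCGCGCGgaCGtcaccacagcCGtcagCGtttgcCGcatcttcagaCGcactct

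The Phlda2 and Plagl1 windows each held 26 CG dinucleotides, and 16.9% of all 32851 promoter windows of this length held at least as many. The Nap1l5 window held 17 and the Peg3 window 13, against a median of 7 over all windows. Windows were listed for 32 of the 38 members, and the 6 without one were H19, Cdkn1c, Rtl1, Sgce, Peg10 and Impact. The Peg3 window shares 263 bases with that of Usp29, which is transcribed in the opposite direction from the same promoter region. The letters TGCCGC, which ZFP57 binds when methylated, were searched on both strands. They occurred once in the Plagl1 window, 2 times in the Nap1l5 window and not in the Phlda2 or Peg3 windows. Over all windows, 11.6% held them, and 12 of 49 member windows, 24.5%, did so. These 12 belong to 11 members, since 2 Mest windows that start 3 bases apart both count. Member windows had a median of 13 CG dinucleotides, and windows matched for CG content were not compared. A match describes the letters only, and methylation was not measured here.

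With dTAG against DMSO, 11 of the 26 tested members rose, 2 fell and 13 did not pass the test (edgeR, adjusted p under 0.05 over 10311 genes). Over all tested genes, 20.1% were called higher and 20.3% lower. The median log2 fold change of the 26 was 0.23, beside 0 over all genes. After LIF withdrawal, 14 members rose, 8 fell and 4 did not pass, where 34% of all tested genes were called higher and 34.4% lower. Their median was 0.57, beside -0.02 over all genes. In a fit of the 8026 genes with 1 transcript alone, 7 of 16 members rose and 2 fell with dTAG, beside 23.6% and 24.1% of those genes. Without LIF 8 of the 16 rose and 7 fell, beside 37.1% and 37.9%.

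Calls were then set against the expressed allele. Of 10 tested maternally expressed members, 5 rose and 1 fell with dTAG, and 7 rose and 2 fell without LIF, with medians of 0.69 and 0.80. Of 15 tested paternally expressed members, 6 rose and 1 fell with dTAG, and 7 rose and 6 fell without LIF, with medians of 0.07 and 0.26. Both classes held genes called in each direction in each experiment. Over all tested genes, 20.1% were called higher and 20.3% lower with dTAG, and 34% and 34.4% without LIF. Whether the classes differ was not tested.

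**Figure D2:**
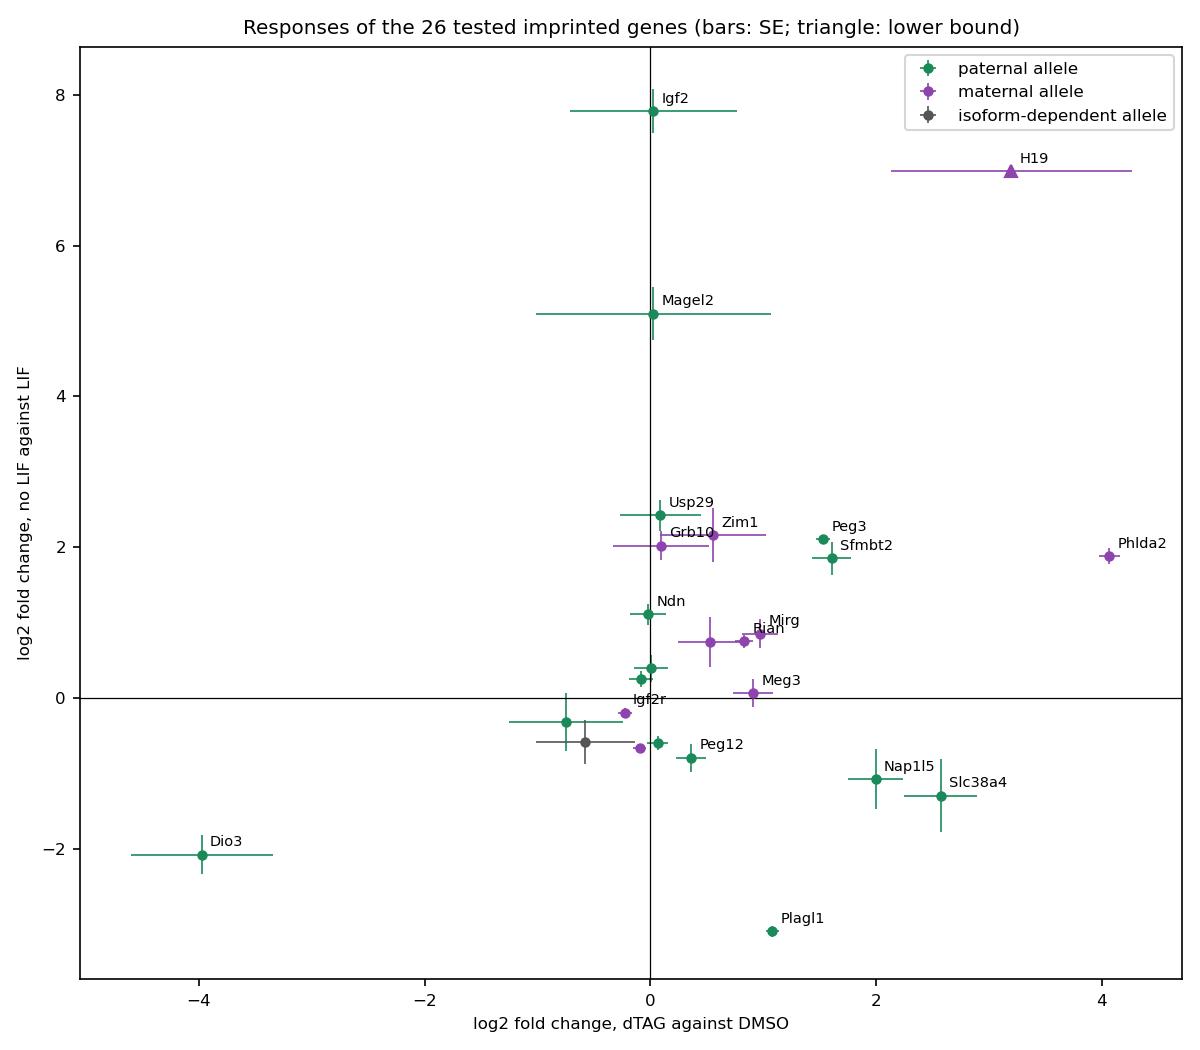
Log2 fold changes of the 26 tested imprinted genes with dTAG against DMSO (horizontal) and without LIF against with LIF (vertical), with standard errors and coloured by the allele usually expressed. Names are given where dTAG gave a call or the vertical value is beyond 0.9. The triangle for H19 marks a lower bound on the vertical axis. Phlda2 lies farthest right at 4.07, Igf2 highest at 7.78, Dio3 low on both axes, and Plagl1, Nap1l5, Slc38a4 and Peg12 right of 0 and below 0.

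The 2 experiments agreed in direction for some members and were opposed for others. Called higher in both were H19, Mirg, Peg3, Phlda2, Rian and Sfmbt2, 6 in all. Called lower in both were Dio3 and Igf2r. Called higher with dTAG and lower without LIF were 4, Nap1l5, Peg12, Plagl1 and Slc38a4, all paternally expressed. No member was called lower with dTAG and higher without LIF. Over all 10311 genes, 9.31% were called higher in both, 11.5% lower in both, 5.89% higher with dTAG and lower without LIF, and 4.71% the reverse. Of the 4 opposed members, Plagl1 kept both calls under every alternative that gave a value. Peg12 lost its dTAG call under 5 alternatives, and Nap1l5 and Slc38a4 lost their no LIF calls under 3 and 4. The dTAG call of H19 and the no LIF call of Igf2r were each lost under 3. The difference of the responses itself, dTAG against DMSO minus no LIF against LIF, was called for 17 of the 26, 8 higher and 9 lower, where 28.6% of all tested genes were called higher and 26.4% lower. The experiments use separate control libraries, and they also differ in cell line, agent and time.

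In the Kcnq1 cluster of chromosome 7, a maternally active set of placental growth restrainers is silenced on the paternal copy by the noncoding RNA Kcnq1ot1. Phlda2, a pleckstrin homology protein that limits placental growth, was read at 16 and 14.0 CPM with DMSO and at 256 and 241 CPM with dTAG. It stood at 12.1 and 11.8 CPM with LIF and at 45.6 and 42.1 CPM without LIF. All libraries of either treatment lay above those of its control. The log2 fold change was 4.07 with dTAG (SE 0.09, adjusted p = 3.36e-22) and 1.88 without LIF (SE 0.11, adjusted p = 1.89e-14). The dTAG response was the larger by 2.19 on the log2 scale (SE 0.15, adjusted p = 3.61e-12).

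The other tested members of the cluster were not called with dTAG. Cd81, a tetraspanin membrane protein, was at 284 and 279 CPM with DMSO and at 267 and 260.4 CPM with dTAG, which was not called (log2 -0.09, adjusted p = 0.197) but passed with only the 4 DMSO and dTAG libraries in the fit (-0.10, adjusted p = 0.0376). It fell from 349 and 382 CPM with LIF to 235 and 225 CPM without LIF, a log2 change of -0.67 (SE 0.06, adjusted p = 7.25e-11). Kcnq1ot1 itself overlapped between DMSO, at 29.2 and 36.0 CPM, and dTAG, at 27.1 and 39.0 CPM. It was at 16.6 and 14.1 CPM with LIF and 16.9 and 25.1 CPM without LIF, a log2 difference of 0.40 that missed the threshold (adjusted p = 0.0526). It passed with RLE scaling (adjusted p = 0.0308), with no count filter (0.0136) and with only the 4 WT libraries in the fit (0.0144). The replicate block (0.0239) and the fit of single transcripts (0.0474) were among other settings in which it passed. Over the fits that left out 1 library, the value ranged from 0.14 to 0.70. That gene lies inside Kcnq1 in the annotation, so reads of the overlapping strands may not be told apart where counting did not use strand. From a wider list of imprinted genes, Ascl2, a maternally expressed trophoblast transcription factor of this cluster, rose from 1.12 and 1.41 CPM to 13.6 and 14.0 CPM with dTAG (log2 3.40, SE 0.26, adjusted p = 3.20e-11). It rose by 1.61 without LIF (SE 0.24, adjusted p = 2.15e-06). Nap1l4, a histone chaperone gene of the cluster, was not called with dTAG and rose by 0.93 without LIF (SE 0.26, adjusted p = 0.00245).

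Both genes of the Igf2-H19 cluster rose after LIF withdrawal. Igf2 encodes a fetal growth factor made from the paternal copy, and H19 is a noncoding RNA made from the maternal copy. Igf2 had 1 and 3 reads in the LIF libraries and 507 and 383 reads without LIF, at 43.3 and 52.2 CPM. Its log2 fold change was 7.78 (SE 0.29, adjusted p = 2.34e-18), and it was 7.0 without WT LIF replicate 1 and 8.89 without replicate 2. H19 had 0 reads with LIF and 213 and 152 reads without LIF, at least 127-fold higher against the floor of 3 reads. The growth factor and the RNA, which are usually made from opposite parental copies, were both far above their LIF libraries. Which copy the reads came from was not measured.

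With dTAG the pair stayed near 0. Igf2 had 2 and 6 reads with DMSO and 6 and 2 reads with dTAG. H19 had 1 and 0 reads with DMSO and 8 and 3 reads with dTAG. That is 11.2 times as many per library size, where the exact 95% limits are 1.63 and 482. The call for H19 (adjusted p = 0.0184) was lost without DMSO replicate 2 (adjusted p = 0.222), without dTAG replicate 1 (0.215) and under DESeq2 (0.0557). The difference between the responses was called for Igf2, at -7.76 (SE 1.10, adjusted p = 1.31e-06), and ranged from -8.86 to -6.98 over the fits that left out 1 library.

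The Dlk1-Dio3 cluster of chromosome 12 carries noncoding RNAs made from the maternal copy, Meg3, Rian and Mirg, of which Rian hosts small nucleolar RNAs and Mirg hosts microRNAs. Rian rose from 180.0 and 228 CPM with DMSO to 338 and 393 CPM with dTAG. Its levels were 171 and 195 CPM with LIF and 307 and 306 CPM without LIF. In each experiment the treated libraries lay above both controls, with log2 fold changes of 0.83 (SE 0.08, adjusted p = 4.30e-09) and 0.75 (SE 0.08, adjusted p = 1.06e-08).

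Mirg rose in both experiments. It was at 10.9 and 17.7 CPM with DMSO, 25.1 and 33.3 CPM with dTAG, 9.01 and 8.82 CPM with LIF, and 14.7 and 18.1 CPM without LIF. The log2 fold changes were 0.97 with dTAG (SE 0.16, adjusted p = 2.36e-05) and 0.85 without LIF (SE 0.19, adjusted p = 0.000347). Neither Rian nor Mirg had a called difference between the responses.

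Meg3, the first RNA of the array, was at 45.8 and 86.5 CPM with DMSO and at 102 and 154 CPM with dTAG. It was at 58.8 and 80.3 CPM with LIF and at 64.2 and 81.7 CPM without LIF, where the groups overlap. The rise with dTAG was 0.91 (SE 0.18, adjusted p = 0.000182), and it ended under DESeq2 (adjusted p = 0.0695). Without DMSO replicate 1 the value was 0.56, and without DMSO replicate 2 it was 1.48. The DMSO libraries differed 1.89-fold in Meg3, 1.60-fold in Mirg and 1.27-fold in Rian, with replicate 2 the higher in each. The dTAG libraries differed 1.51-fold in Meg3, again with replicate 2 the higher. The median gene differed by 0.11 on the log2 scale between the DMSO libraries. Both Meg3 transcripts with reads were called with dTAG when tested alone, at 0.85 and 1.03. Without LIF they were at 0.26 and -0.36, and neither was called. The difference between the responses was not called for the former (0.59, adjusted p = 0.0796), which held 4478 reads. It was called for the latter (1.39, adjusted p = 6.5e-05), which held 1854.

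**Figure D3:**
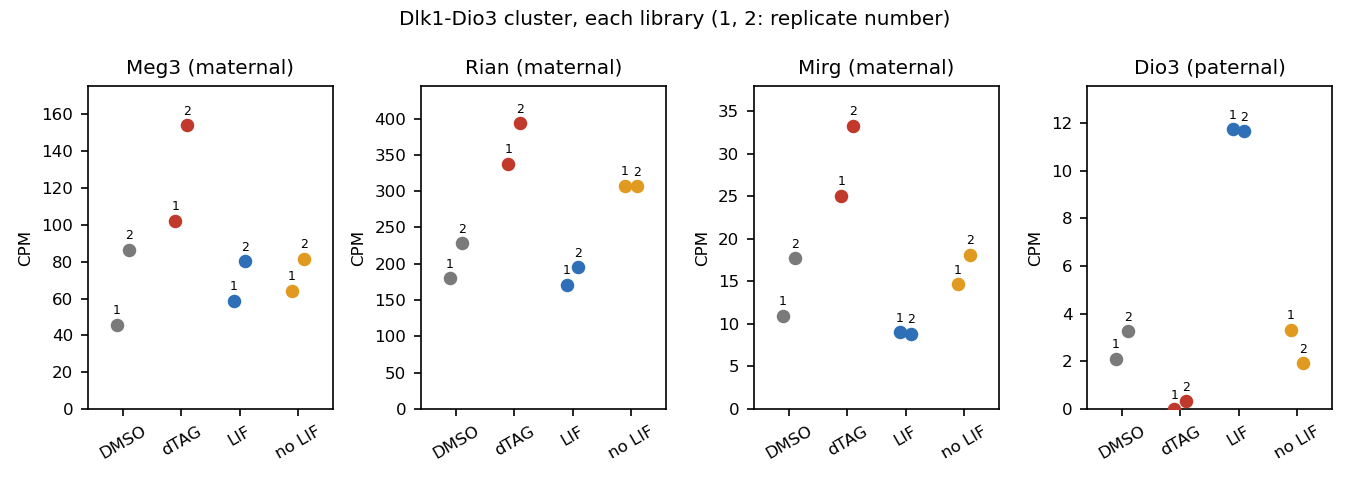
CPM of 4 members of the Dlk1-Dio3 cluster in each library, numbered by replicate, with an axis from 0 for each gene. Meg3, Rian and Mirg are highest in the dTAG libraries, and Dio3 is highest in the LIF libraries, at 11.7 CPM in both.

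The paternally expressed gene at the far end of the cluster went the other way. Dio3, a deiodinase that inactivates thyroid hormone, had 15 and 37 reads with DMSO and 0 and 3 reads with dTAG. Its level was 17.0-fold lower (exact 95% limits 5.51 and 85.2), called at adjusted p = 1.06e-05 and under every alternative that gave a value. The fitted log2 change was -3.03 without dTAG replicate 1. Without dTAG replicate 2 it was -7.76, which rests on 0 reads and is no bound. It fell from 11.7 CPM in both LIF libraries to 3.33 and 1.91 CPM without LIF, by 2.08 on the log2 scale (SE 0.25, adjusted p = 6.20e-08). Dio3 was also lower in DMSO than in WT LIF, by a log2 difference of -2.06 (SE 0.26, adjusted p = 4.16e-07). Dlk1, the other main paternal gene of the cluster, had 0 reads and was not measurable by these counts.

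In the Peg3 cluster, Peg3, a zinc finger protein of growth and maternal behaviour, is made from the paternal copy. It was read at 223 and 219.6 CPM with DMSO, 639 and 636 CPM with dTAG, 275 and 253 CPM with LIF, and 1062 and 1215 CPM without LIF. It rose by 1.53 with dTAG (SE 0.06, adjusted p = 9.54e-17) and by 2.11 without LIF (SE 0.06, adjusted p = 1.43e-20). The replicates lay within 1.15-fold of each other in every group. The rise without LIF was the larger by 0.58 (difference -0.58, SE 0.09, adjusted p = 2.99e-06).

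Usp29, a ubiquitin protease gene that starts beside Peg3, was not called with dTAG. It was at 2.95 and 1.58 CPM with DMSO and at 2.30 and 2.22 CPM with dTAG, which overlap. It rose from 4.59 and 2.82 CPM with LIF to 19.2 and 22.1 CPM without LIF, by 2.42 (SE 0.20, adjusted p = 6.61e-11). The difference between the responses was -2.33 (SE 0.43, adjusted p = 5.26e-05), and 1 of its 8 listed transcripts held 538 of its 543 reads. That transcript is listed as noncoding, and the listed coding ones had 0 reads. The rise is therefore not shown for the RNA that codes for the protease. Zim1, a maternally expressed zinc finger gene of the cluster, rose from 12 and 8 reads with LIF to 64 and 24 reads without LIF (log2 2.16, SE 0.36, adjusted p = 8.22e-06). With dTAG it had 11 and 15 reads against 6 and 12 with DMSO, and was not called. All 3 tested members of this cluster, paternal and maternal, rose without LIF, and 1 of 3 rose with dTAG.

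The Snrpn-Ube3a cluster, the mouse counterpart of the Prader-Willi and Angelman region, held 4 tested members. Magel2, a regulator of protein ubiquitination in neurons, had 1 and 2 reads with DMSO, 2 and 1 with dTAG, 3 and 3 with LIF, and 131 and 76 without LIF. Its rise without LIF was 5.10 on the log2 scale (SE 0.35, adjusted p = 1.30e-12). Ndn, a growth suppressor of neurons related to Magel2, was at 10.9 and 12.4 CPM with DMSO, 12 and 11.2 CPM with dTAG, 11.4 and 9.29 CPM with LIF, and 23.5 and 21.3 CPM without LIF. It rose by 1.11 without LIF (SE 0.14, adjusted p = 1.16e-07). Neither was called with dTAG. The difference between the responses was called for both, at -5.08 for Magel2 and -1.13 for Ndn, and for Magel2 that call ended without DMSO replicate 2 (adjusted p = 0.0775).

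Peg12, a paternally expressed intronless gene that codes for an inhibitor of GSK3, moved in another way. It was at 16.9 and 18.1 CPM with DMSO, 23.4 and 21.7 CPM with dTAG, 8.92 and 9.06 CPM with LIF, and 5.80 and 4.23 CPM without LIF. It fell by 0.79 without LIF (SE 0.19, adjusted p = 0.000564). The small rise with dTAG, 0.36 (SE 0.13, adjusted p = 0.0295), was lost on leaving out any 1 of the 4 DMSO and dTAG libraries (adjusted p from 0.0573 to 0.194) and under DESeq2 (0.179).

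Ube3a, the ubiquitin ligase made from the maternal copy in neurons, had few reads. It was at 1.59 and 3.06 CPM with LIF and 3.33 and 4.36 CPM without LIF, a log2 change of 0.74 (SE 0.33, adjusted p = 0.0472). One library sufficed to end that call, whether WT LIF replicate 1 (adjusted p = 0.516), WT no LIF replicate 1 (0.053) or WT no LIF replicate 2 (0.203), as did DESeq2 (0.125). With dTAG it was not called, though 1 of its transcripts was when tested alone (log2 1.27, adjusted p = 0.0298). From the wider list, Atp10a, a lipid flippase gene beside Ube3a, rose from 11.6 and 11.5 CPM to 75.8 and 81.8 CPM without LIF (log2 2.77, SE 0.13, adjusted p = 1.42e-16). Mkrn3, a paternally expressed gene of the cluster, was between 3.93 and 7.21 CPM in all libraries and was called in neither experiment.

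Igf2r, the maternally expressed receptor that clears IGF2, was at 412 and 410.5 CPM with DMSO, 349.7 and 353 CPM with dTAG, 468 and 416 CPM with LIF, and 366 and 407 CPM without LIF. It fell by 0.23 with dTAG (SE 0.06, adjusted p = 0.00351). The fall without LIF, 0.20, was lost when WT LIF replicate 1 (adjusted p = 0.0859) or WT no LIF replicate 1 (0.146) was left out, and under DESeq2 (0.0564). Slc22a3, a transporter gene of the Igf2r cluster from the wider list, had 76 reads without LIF and 0 with LIF, at least 26.4-fold higher. Of the Peg10-Sgce cluster neither member could be tested. Its maternally expressed neighbour Ppp1r9a, from the wider list, rose by 1.05 without LIF (SE 0.09, adjusted p = 4.06e-11). The other listed genes of the clusters had at most 12 reads in all.

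Plagl1 stood out among the single genes for opposite responses. It encodes a zinc finger transcription factor that restrains the cell cycle and is made from the paternal copy. It was at 548 and 543 CPM with DMSO and 1167 and 1142 CPM with dTAG. It was at 370.4 and 378 CPM with LIF and 39.9 and 48.8 CPM without LIF. The dTAG libraries were the highest of the 8 and the libraries without LIF the lowest, with no overlap between any 2 groups. Plagl1 rose by 1.08 with dTAG (SE 0.06, adjusted p = 1.68e-14) and fell by 3.10 without LIF (SE 0.07, adjusted p = 8.66e-23). The difference of the responses was 4.18 (SE 0.09, adjusted p = 4.90e-22), and over all alternatives that left out 1 library it lay between 4.02 and 4.29.

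Nap1l5 and Slc38a4 had the same opposition at low levels. Nap1l5, a nucleosome assembly protein-like gene that lies inside the gene Herc3, had 12 and 36 reads with DMSO, 99 and 88 with dTAG, 23 and 19 with LIF, and 11 and 8 without LIF. It rose by 2.00 with dTAG (SE 0.25, adjusted p = 2.29e-07), and by 2.60 without DMSO replicate 2. Slc38a4, an amino acid transporter of placenta and liver, had 9 and 19 reads with DMSO, 61 and 103 with dTAG, 23 and 16 with LIF, and 6 and 9 without LIF. It rose by 2.57 with dTAG (SE 0.32, adjusted p = 2.65e-07).

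The falls of these genes without LIF were weaker, -1.08 for Nap1l5 (adjusted p = 0.0209) and -1.30 for Slc38a4 (adjusted p = 0.0211). Without WT no LIF replicate 1 they were -0.95 and -0.67 and were not called (adjusted p 0.139 and 0.340), and DESeq2 called neither (0.0745 and 0.0607). The call for Nap1l5 also ended without WT LIF replicate 2 (0.0641) and that for Slc38a4 without WT LIF replicate 1 (0.0675). Without WT no LIF replicate 2, Slc38a4 stood at -1.90. The differences between the responses were 3.07 for Nap1l5 (SE 0.47, adjusted p = 4.64e-06) and 3.87 for Slc38a4 (SE 0.59, adjusted p = 3.62e-06), and both were called under every alternative that gave a value. Without DMSO replicate 2 the former was 3.67, and the latter was 3.24 without WT no LIF replicate 1 and 4.47 without replicate 2. Herc3, the host of Nap1l5, was at 0.792 to 2.12 CPM over the 8 libraries and was called in neither experiment.

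**Figure D4:**
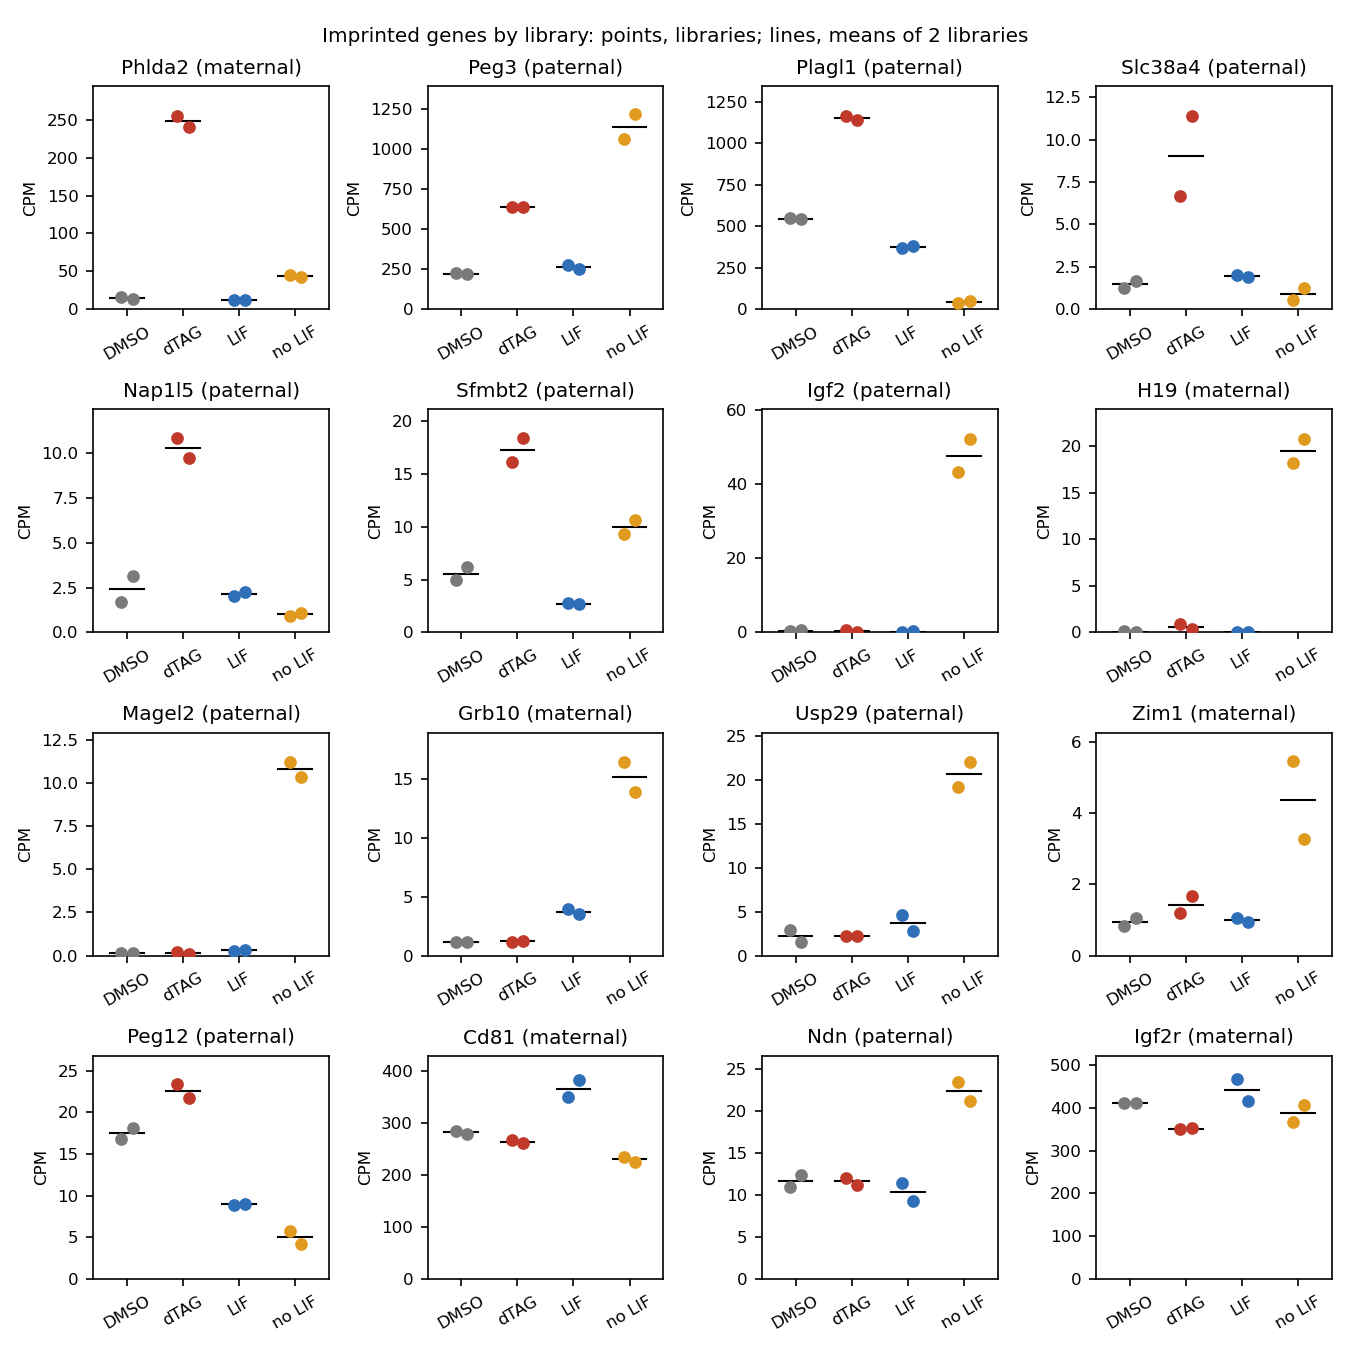
CPM of 16 imprinted genes in each library (points) with the group mean (line), each panel with its own axis from 0 and the allele usually expressed in brackets. Phlda2, Slc38a4, Nap1l5 and Sfmbt2 are highest with dTAG. Igf2, H19, Magel2, Grb10, Usp29 and Zim1 are highest without LIF, and Plagl1 is highest with dTAG and lowest without LIF.

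Sfmbt2 and Grb10 completed the single genes with large changes. Sfmbt2, a Polycomb group protein needed in trophoblast and made from the paternal copy, was at 4.91 and 6.16 CPM with DMSO, 16.1 and 18.4 CPM with dTAG, 2.74 and 2.71 CPM with LIF, and 9.30 and 10.6 CPM without LIF. It rose by 1.61 with dTAG (SE 0.17, adjusted p = 2.43e-08) and by 1.85 without LIF (SE 0.22, adjusted p = 3.15e-08). Grb10, an adaptor that dampens insulin and IGF signalling, rose from 3.97 and 3.53 CPM with LIF to 16.5 and 13.9 CPM without LIF (log2 2.02, SE 0.19, adjusted p = 7.87e-10). With DMSO it was at 1.12 and 1.14 CPM and with dTAG at 1.20 and 1.22 CPM, and was not called. The responses of Grb10 differed by -1.93 (SE 0.48, adjusted p = 0.00150).

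Among the intronless genes inside larger host genes, Zrsr1, a splicing factor-like gene inside Commd1, was at 50.7 to 61.5 CPM in the DMSO and dTAG libraries. It fell from 60.1 and 62.7 CPM with LIF to 40.0 and 41.5 CPM without LIF (log2 -0.59, SE 0.09, adjusted p = 3.57e-06). Its host Commd1 fell as well, by 0.93 (SE 0.21, adjusted p = 0.000417). Mcts2, a translation factor-like gene inside H13, was at 27.8 to 35.0 CPM in all 8 libraries. Its rise without LIF, 0.26 (SE 0.10, adjusted p = 0.0335), needed WT LIF replicate 1 (adjusted p = 0.253 when left out) and both libraries without LIF (0.106 without replicate 1, 0.0721 without replicate 2). It was also lost under DESeq2 (0.0741), with no count filter (0.0728) and with only the 4 WT libraries in the fit (0.0515). Its host H13 rose by 0.97 (SE 0.20, adjusted p = 0.000128).

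Impact and Gnas were called in neither experiment. Impact, a regulator of translation made from the paternal copy, had 6 to 30 reads per library. Gnas had 5 to 49 reads per library, spread over 2 of its 11 listed transcripts.

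Members also differed between the control groups, the tagged line in DMSO and the WT line with LIF. There 5 were higher with DMSO and 6 lower, where 18.5% of all tested genes were called higher and 22.1% lower. Higher in DMSO were Kcnq1ot1 (log2 1.09), Sfmbt2 (1.05), Peg12 (0.97), Mirg (0.74) and Plagl1 (0.54). Lower were Dio3 (-2.06), Grb10 (-1.72), Gnas (-1.40), Usp29 (-0.84), Cd81 (-0.38) and Peg3 (-0.26). The call for Mirg was lost without DMSO replicate 2 (adjusted p = 0.315). That for Usp29, whose libraries overlap, was lost without DMSO replicate 2 (0.541), WT LIF replicate 1 (0.470) or WT no LIF replicate 2 (0.0545), with only the 4 control libraries in the fit (0.0824) and under DESeq2 (0.121). Cell type markers differed here as well. Cdx2, a trophoblast transcription factor, was at 30.7 and 35.0 CPM with DMSO against 0.530 and 1.06 CPM with LIF (log2 5.43, SE 0.23, adjusted p = 1.51e-15). Pou5f1, which encodes OCT4 and has 2 listed transcripts, was at 77.5 and 77.8 CPM against 425 and 336 CPM (log2 -2.30, SE 0.09, adjusted p = 3.46e-16). The ES cell growth factor Fgf4 was at 379 and 403 CPM against 773 and 801 CPM (log2 -1.01, SE 0.05, adjusted p = 9.33e-14). Of 10 tested ES cell markers 5 were higher in DMSO and 3 lower, and of 9 tested trophoblast markers 2 were higher and 2 lower. The tag, the line, the DMSO and the culture cannot be told apart in this comparison, and the part of these markers in the members' values was not tested.

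Other imprinted genes were read from a wider list of 39, of which 15 could be tested. With dTAG 3 rose and 1 fell, where 20.1% of all tested genes were called higher and 20.3% lower. Without LIF 10 rose and 2 fell, beside 34% and 34.4% of all tested genes. The medians were 0.32 and 0.97. Gatm, an enzyme of creatine synthesis, rose from 2.25 and 2.73 CPM to 9.96 and 10.3 CPM with dTAG (log2 1.99, SE 0.21, adjusted p = 1.75e-08). It rose from 2.65 and 2.94 CPM to 29.6 and 30.7 CPM without LIF (log2 3.43, SE 0.17, adjusted p = 1.01e-15). Qpct, a glutaminyl cyclase, had 19 reads with DMSO and 0 with dTAG, at least 6.22-fold lower against the floor of 3 reads. It fell from 61 to 3 reads without LIF.

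Genes that keep imprints and set DNA methylation were read as well. Of 18 tested of 22 listed, 2 rose and 5 fell with dTAG, where 20.1% of all tested genes were called higher and 20.3% lower. Without LIF 3 rose and 8 fell, beside 34% and 34.4% of all tested genes. Zfp57, which holds methylation at imprinted control regions, fell from 51.4 and 75.1 CPM to 32.9 and 43.1 CPM with dTAG (log2 -0.76, SE 0.14, adjusted p = 6.20e-05). It fell from 59.7 and 74.6 CPM to 10.1 and 9.41 CPM without LIF (log2 -2.77, SE 0.17, adjusted p = 8.85e-14). Dppa3, which protects imprints in the early embryo, fell by 0.92 with dTAG (SE 0.06, adjusted p = 1.36e-12) and by 2.31 without LIF (SE 0.07, adjusted p = 3.23e-20). Tet1, a 5-methylcytosine oxidase, fell by 0.69 (SE 0.06, adjusted p = 2.09e-10) and by 1.04 (SE 0.06, adjusted p = 1.66e-14). Eed, a Polycomb subunit, fell by 0.66 with dTAG (SE 0.05, adjusted p = 1.04e-10) and by 0.69 without LIF (SE 0.05, adjusted p = 1.23e-11). Smchd1, a chromatin protein that silences some imprinted genes, rose from 352 and 327 CPM to 420.2 and 414 CPM with dTAG (log2 0.30, SE 0.06, adjusted p = 8.79e-05). It rose from 378 and 356 CPM to 656 and 686 CPM without LIF (log2 0.87, SE 0.05, adjusted p = 1.60e-13). Ezh2, a Polycomb methyltransferase, rose by 0.54 with dTAG (SE 0.18, adjusted p = 0.0206). The DNA methyltransferase gene Dnmt3b rose from 0.441 and 0.470 CPM to 6.32 and 6.95 CPM without LIF (log2 3.82, SE 0.39, adjusted p = 3.07e-09), and the oxidase gene Tet3 by 1.15 (SE 0.46, adjusted p = 0.0297). Also lower without LIF were Tet2 (log2 -3.47, adjusted p = 4.91e-07), Arid4a (-0.84, 9.08e-10), Kdm1b (-0.57, 2.82e-06) and Trim28 (-0.27, 0.000108). Of these, Kdm1b was also lower with dTAG (log2 -0.25, adjusted p = 0.026). Dnmt1 could be read at only 0.706 to 1.40 CPM, and Uhrf1 and Setdb1 had 0 reads.

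Markers of other cell types were read as well. The summed level of 16 trophoblast markers, 9 of them tested, was 62.2 and 64.3 CPM with DMSO, 282 and 263 CPM with dTAG, 27.5 and 27.3 CPM with LIF, and 1511 and 1405 CPM without LIF. With dTAG 5 of the 9 rose, where 20.1% of all tested genes were called higher. Without LIF 8 rose and 1 fell, beside 34% and 34.4% of all tested genes. The 1 that fell was Tfap2c, from 3.27 and 3.65 CPM to 0.854 and 0.409 CPM (log2 -2.3, SE 0.39, adjusted p = 1.02e-05). The defining marker Cdx2 went from 30.7 and 35.0 CPM to 192 and 169 CPM with dTAG (log2 2.44, SE 0.10, adjusted p = 5.20e-17). In the WT line, where it stayed below 3 CPM in all 4 libraries, it rose without LIF (log2 1.56, SE 0.43, adjusted p = 0.00222). The keratins Krt8, at 521 and 477 CPM, and Krt18, at 878 and 823 CPM, made up most of the trophoblast sum without LIF. Prl2c2 and Tpbpa, with 1 listed transcript each, had 0 and 5 reads. Reads that align to several places were not counted, so that 0 need not mean absence. Gata3, Prl3d1 and Elf5 had at most 1 read in all, but each has several listed transcripts, so this says nothing of their expression. The list shares Peg10 with the members and Ascl2 with the wider imprinted list.

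Summed primitive endoderm markers were at 371 to 428 CPM in the control libraries, 555 and 501 CPM with dTAG, and 778 and 879 CPM without LIF. Summed fibroblast markers were at 487 to 581 CPM in the control libraries, 743 and 708 CPM with dTAG, and 1049 and 1011 CPM without LIF. Of the former list 6 of 14 could be tested, with 3 higher and 1 lower with dTAG and 4 higher and 2 lower without LIF. Of the latter 10 of 16 could be tested, with 2 higher and 2 lower with dTAG and 7 higher and 2 lower without LIF. Over all tested genes, 20.1% were called higher and 20.3% lower with dTAG, and 34% and 34.4% without LIF. Gata6, a transcription factor that specifies primitive endoderm, rose from 0.281 and 0.792 CPM to 20.6 and 16.9 CPM with dTAG (log2 4.95, SE 0.30, adjusted p = 3.46e-13). It rose from 1.32 and 1.41 CPM to 2.22 and 3.27 CPM without LIF (log2 0.95, SE 0.36, adjusted p = 0.0234). Laminins took most of that sum. Lamb1 went from 63.6 and 60.5 CPM to 430.2 and 384 CPM with dTAG, while Lama1 fell from 321.9 and 321.4 CPM to 95.7 and 91.6 CPM (log2 -1.78, SE 0.07, adjusted p = 1.45e-17). In the fibroblast list, Tagln alone made up most of the sum without LIF, at 763 and 725 CPM against 2.12 and 1.76 CPM with LIF. Fn1 fell from 163 and 152 CPM with LIF to 22.2 and 21.7 CPM without LIF (log2 -2.84, SE 0.08, adjusted p = 1.42e-20). Vim, most of the sum with LIF at 324.1 and 319.5 CPM, rose by 0.48 with dTAG and fell by 1.67 without LIF. Gata4, Sox17, Foxa2, Postn, Dcn and Prrx1 had at most 3 reads each in all, and each has several listed transcripts, so their low counts are uninformative. Other markers have 1 listed transcript each and still had too few reads to test. In all libraries, Afp had 9 reads, Ttr 18, Twist2 9, Lum 29 and S100a4 19. Phlda2, Ascl2, Sfmbt2 and Slc38a4, which placental cells express, rose with dTAG beside the trophoblast sum, which includes Ascl2. Other members did not, since Dio3 and Igf2r fell with dTAG and Igf2 was not called. Without LIF the trophoblast sum rose, while Slc38a4 went from 23 and 16 reads to 6 and 9 reads. Igf2 and H19 rose without LIF beside the trophoblast, primitive endoderm and fibroblast sums. In such bulk samples more cells of a type and more RNA per cell cannot be told apart, and the part of these markers in the results was not tested.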

How the data were processed

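Each library had 1 table of raw counts, deposited by the authors with a row for each RefSeq transcript. The submitters' processing notes name HISAT2, HTSeq and mm9 and give no version. How counting used strand was not given in the sources used here. Summary lines stayed out of library sizes. Of 41565 accessions, 41325 were named through the RefSeq table of GRCm38, 126 through GENCODE, and 114 kept their accession. Counts were summed per symbol and tested in edgeR 4.0.16 (R 4.3.3; TMM, filterByExpr, quasi-likelihood) in 1 fit of 4 groups, with 4 residual degrees of freedom and Benjamini-Hochberg adjustment over 10311 genes. SE is the log2 fold change over the square root of F. DESeq2 1.42.0, another scaling, other filters, a replicate block, single transcripts and leaving out each library were alternatives. The test was checked on simulated data. Libraries within a group differed beyond sampling noise. Promoters came from the RefSeq table. Every member is named. From wider lists, genes sharing a cluster or with the smallest adjusted p are named. Host genes of nested members were added after their values were seen. So were Uhrf1, Setdb1, Dnmt1, Dnmt3b, Tet3, Smchd1, Ezh2, Pou5f1, Fgf4, Tdgf1, Tfcp2l1, Cdx2, Gata6, Krt8, Krt18, Lama1, Lamb1 and Vim. The same holds for Trim28, Tet2, Arid4a, Kdm1b, Tagln, Fn1, Tfap2c, Tpbpa, Afp, Ttr, Twist2, Lum and S100a4. The members and lists were chosen with earlier results of these data known.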

Additional observations from a re-analysis of the deposited data

Results flagged for a closer look

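For 17 members the response to dTAG differed from the response to LIF withdrawal by the test of the difference itself (edgeR, adjusted p under 0.05, log2 scale, positive where the dTAG response was the higher). The positive differences were 4.18 for Plagl1, 3.87 for Slc38a4, 3.07 for Nap1l5, 2.19 for Phlda2, 1.16 for Peg12, 0.84 for Meg3, 0.66 for Zrsr1 and 0.57 for Cd81. The negative ones were -7.76 for Igf2, -7.31 for H19, -5.08 for Magel2, -2.33 for Usp29, -1.93 for Grb10, -1.90 for Dio3, -1.61 for Zim1, -1.13 for Ndn and -0.58 for Peg3. The value for H19 rests on 0 reads with LIF and is neither a size nor a bound. Of the 17, 12 were called under every alternative that gave a value, and the other 5 were Dio3, H19, Magel2, Meg3 and Zim1. The value for Dio3 was -0.95 without dTAG replicate 1 and -5.68 without dTAG replicate 2. DESeq2 called the difference of neither Dio3 (adjusted p = 0.0989), Meg3 (0.249) nor Zim1 (0.125). Leaving out DMSO replicate 2 ended the call for Magel2 (adjusted p = 0.0775), Dio3 (0.155) and Zim1 (0.182). Leaving out dTAG replicate 1 ended it for Dio3 (0.359) and Zim1 (0.0906), and leaving out dTAG replicate 2 for Meg3 (0.0521). Leaving out WT no LIF replicate 1 ended it for Dio3 (0.211), Meg3 (0.106) and Zim1 (0.175). For H19 it ended without DMSO replicate 1 (adjusted p = 1) or WT LIF replicate 1 (0.0551), and for Zim1 without either WT LIF library (0.0523 and 0.0540).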

How the results depend on the processing

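Of 104 pairs of a tested member and a comparison, 63 were called. Of these, 48 were called under every alternative that gave a value, and none of the 63 changed sign. In the alternative with single transcripts, the transcript with the smallest adjusted p stood for its gene, which favours a call. For Sfmbt2 in DMSO against WT LIF, a transcript at 1.23 was called and another at 0.69 was not (edgeR, adjusted p = 0.208). With only genes of 1 transcript, which leaves 16 members, 7 members were called higher with dTAG and 8 without LIF, 5 had a lower difference of responses, and 3 were lower in DMSO than in WT LIF. DESeq2 called 5 members lower without LIF, and leaving out each library gave 5 to 8, with 5 without WT no LIF replicate 1. Values near 0 that changed sign were not called in the main comparison. Meg3 in DMSO against WT LIF was -0.01, but 0.0060 with RLE scaling, 0.014 with no filter, 3.6e-05 with 4 libraries only, and from -0.56 to 0.36 over the fits that left out 1 library. Gnas with dTAG lay between -1.62 (without dTAG replicate 1, adjusted p = 0.0452) and 0.02, and the difference of responses of Rian between -0.074 and 0.27, over those fits. With the replicate block, 11 members were called higher and 2 lower with dTAG, 15 higher and 8 lower without LIF. The block ended the call of the difference for Dio3 (adjusted p = 0.0531), and added calls for Mcts2 in the difference (0.0434), Kcnq1ot1 without LIF (0.0239) and Phlda2 between the controls (0.0403). Same-numbered libraries did not deviate together over all tested genes (correlation 0.015 for DMSO and dTAG, 0.030 for LIF and no LIF). The labels do not say whether equal numbers mark a shared culture or day. These correlations cannot settle it, since a shared culture need not move most genes. The 12 members with at most 25 reads could not be tested. Of these, 11 have several listed transcripts, so their reads may have been set aside as ambiguous.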
